A study of Homo sapiens with 80 samples.

Results

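The 7 S100 genes S100A4, S100A6, S100A8, S100A9, S100A10, S100A11 and S100A13 were followed through every count table of a study of lenalidomide resistance in anaplastic large cell lymphoma. They were taken by name, as genes of 1 family selected on values in which S100A9 stood out, and they are 7 of the 58735 genes listed in RNA-seq, of 17792 in PRO-seq and of 17463 in DGE. The genes were chosen with the higher S100A9 of regrown over parental cells in PRO-seq and in RNA-seq without doxycycline already known, so all 7 are described in those 2 comparisons with no test.

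The data covered 42 libraries in 14 groups of 3, all from SU-DHL-1 or KI-JK, established ALK-positive lines of this T-cell lymphoma. Parental SU-DHL-1 cells were compared with regrown cells, which are 3 independent pools selected under rising lenalidomide and kept without drug for at least 2 months, by PRO-seq (RNA still being made by engaged polymerase) with no further treatment. DGE, which counts transcript ends, compared parental and regrown cells under DMSO or 2.5 µM lenalidomide for 18 h. RNA-seq compared parental and regrown cells that all carried Cas9 and a doxycycline-inducible guide against ZFP91. They were kept without doxycycline or with 1 µg/ml for 96 h (called the ZFP91 knockout). No group had doxycycline without that guide, so doxycycline itself, cutting by Cas9 and loss of ZFP91 cannot be told apart. RNA-seq also compared SU-DHL-1 and KI-JK cells carrying an empty vector or a CSNK2B vector, CSNK2B being a subunit of casein kinase 2. The labels do not say that the 3 parental samples, or the vector samples, came from separate cultures, so p-values there measure the spread between these samples, which may be technical. The 38 ChIP-seq samples were not analysed here.

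S100 proteins are small proteins with a pair of EF-hand loops, and most of them change shape when they bind calcium and then grip a target protein. S100A8 and S100A9 pair as calprotectin, a major cytosolic protein of neutrophils and monocytes that also signals through the receptors RAGE (AGER) and TLR4. S100A10 is the exception that no longer binds calcium and is held on annexin A2 (ANXA2) at the cell surface, while S100A11 binds annexin A1 (ANXA1), S100A6 (calcyclin) binds CACYBP, and S100A4 binds the heavy chain of non-muscle myosin (MYH9).

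PRO-seq libraries held 33.5 M to 47.2 M counts each, DGE libraries 41571 to 395827, and RNA-seq libraries 14.4 M to 28.9 M. Levels below are CPM, the usual scaling of counts to 1 common library size, made within each table, and a gene was called higher or lower when the adjusted p of edgeR's quasi-likelihood test was under 0.05. ALK and TNFRSF8 (CD30), which define this lymphoma, were read at group means from 368 CPM upwards in RNA-seq of KI-JK and from 331 CPM upwards in RNA-seq of SU-DHL-1. CSNK2B went from 30.01 to 251 CPM with its vector in SU-DHL-1 and from 17.4 to 79.5 CPM in KI-JK. ZFP91 RNA, which still comes from a gene cut by Cas9, went from 110 to 87.6 CPM in parental and from 94.4 to 87.4 CPM in regrown cells.

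All 7 genes lie on chromosome 1q21, at these hg38 intervals of the PRO-seq table: S100A10 at chr1:151982915-151993812, S100A11 at chr1:152032506-152037004, S100A9 at chr1:153357854-153361023, S100A8 at chr1:153390032-153391073, S100A6 at chr1:153534599-153536012, S100A4 at chr1:153543613-153545085 and S100A13 at chr1:153618804-153627505. S100A9 is on the plus strand and the other 6 genes are on the minus strand. The 250 bases before the RefSeq start (GRCh38.p14) are shown for the calprotectin pair, of which 1 gene was read in regrown cells and the other nearly not, and for S100A10 and S100A11, which rose together in the regrown knockout. They are S100A9 at chr1:153357604-153357853, S100A8 at chr1:153391074-153391323, S100A10 at chr1:151993860-151994109 and S100A11 at chr1:152037005-152037254, each written 5′ to 3′ on the gene's strand, with capitals for the ETS core GGAA or its complement TTCC and for the C/EBP letters TTGCNNAA or their complement.
S100A9: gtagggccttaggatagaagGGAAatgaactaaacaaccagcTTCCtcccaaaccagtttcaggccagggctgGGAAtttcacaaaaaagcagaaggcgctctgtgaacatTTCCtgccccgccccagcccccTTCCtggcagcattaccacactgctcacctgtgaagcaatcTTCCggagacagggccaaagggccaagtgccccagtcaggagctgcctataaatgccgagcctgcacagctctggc
S100A8: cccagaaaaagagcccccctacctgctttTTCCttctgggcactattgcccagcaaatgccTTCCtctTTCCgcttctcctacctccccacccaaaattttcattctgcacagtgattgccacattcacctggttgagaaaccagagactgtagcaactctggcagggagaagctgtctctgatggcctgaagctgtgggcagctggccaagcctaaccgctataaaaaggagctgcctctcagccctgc
S100A10: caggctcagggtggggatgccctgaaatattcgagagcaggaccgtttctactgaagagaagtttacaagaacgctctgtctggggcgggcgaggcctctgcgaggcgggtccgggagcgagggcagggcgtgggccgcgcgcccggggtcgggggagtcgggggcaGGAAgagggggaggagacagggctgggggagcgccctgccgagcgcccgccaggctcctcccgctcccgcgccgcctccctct
S100A11: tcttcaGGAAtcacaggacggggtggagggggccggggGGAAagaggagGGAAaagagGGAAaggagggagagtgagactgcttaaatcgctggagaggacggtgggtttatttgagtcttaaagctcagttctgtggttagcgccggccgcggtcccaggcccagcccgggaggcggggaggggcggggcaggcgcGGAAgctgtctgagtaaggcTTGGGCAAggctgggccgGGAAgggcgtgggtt
Both strands were searched. GGAA was present in all 7 members' windows, with 6 matches in S100A9, 3 in S100A8, 1 in S100A10 and 6 in S100A11, and it was present in 92.7% of the 34943 RefSeq windows of this length. Among the 7 members only S100A11 held the C/EBP letters, as TTGGGCAA, a pattern found in 9.06% of all windows. The AP-1 letters TGANTCA (in 6.59% of windows), the STAT letters TTCNNNGAA (6.56%) and GAGGAAGT of PU.1, which contains GGAA (2.17%), were in none of the 7, nor was the motif searched for IRF factors (3.02%). A match is a description of letters and not a binding site.

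The genes could be ordered by polymerase signal in parental cells, except for the last pair. PRO-seq per kilobase of counted interval gave S100A11 at 19.9 ± 2.48 CPM per kb (SD, n = 3), S100A6 at 8.05 ± 0.675, S100A10 at 2.93 ± 0.395, S100A4 at 1.31 ± 0.334 and S100A13 at 0.370 ± 0.0935. S100A9 followed at 0.0204 ± 0.0106 CPM per kb and S100A8 had no count in 3 libraries, which allows up to 0.0273 CPM over the group, so the order of S100A9 and S100A8 is not resolved. From S100A11 down to S100A9, no neighbours in the order overlapped in their 3 parental libraries. In regrown cells S100A9 stood at 4.62 ± 3.42 CPM per kb, and its range overlapped those of S100A6, S100A10 and S100A4.

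**Figure D1:**
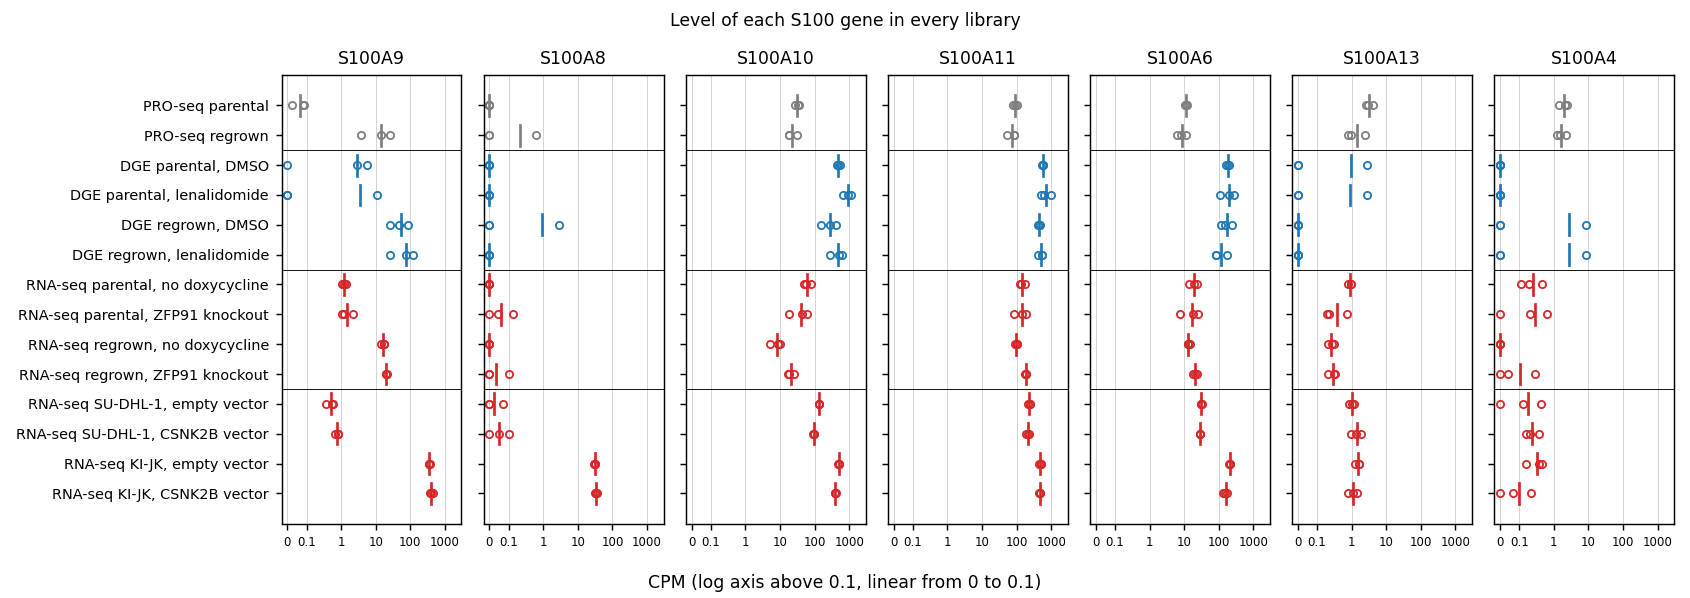
CPM of the 7 genes (panels) in each of the 42 libraries (circles) with the group mean (bar), by group, on an axis that is logarithmic above 0.1 CPM and linear below; grey is PRO-seq, blue DGE and red RNA-seq, which are on separate scales. S100A9 is near 0 in parental SU-DHL-1, at 14.4 to 21.6 CPM in RNA-seq of regrown cells and at 339 to 441 CPM in KI-JK, while S100A8 is near 0 in all SU-DHL-1 groups.

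S100A9, the partner that forms calprotectin with S100A8, was nearly unread in parental SU-DHL-1 and clearly read in all 3 regrown pools. In PRO-seq the parental libraries held 1, 3 and 3 counts (0.0261, 0.0884 and 0.0797 CPM) and the regrown pools 846, 580 and 184 (25.5, 14.5 and 3.85 CPM). The groups did not overlap, which 45% of all genes showed, and the pools differed from each other by several fold. The ratio of pooled levels, each the counts of a group over its summed library sizes, was 209 (95% interval 101 to 521, exact, counting error only). The fitted log2 change was 7.76 ± 0.83 (SE). S100A9 passed the filter on low counts there only through the regrown group.

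RNA-seq without doxycycline gave 1.07, 1.23 and 1.42 CPM in parental and 14.4, 17.4 and 16.8 CPM in regrown cells, a log2 change of 3.69 ± 0.22. Here the pools were close to each other, unlike in PRO-seq. Both comparisons are descriptions, because they led to the choice of the gene.

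The libraries with the ZFP91 knockout are other libraries of the same parental and regrown cells; earlier results from them were also known when the genes were chosen. They gave 1.18, 2.18 and 1.04 CPM in parental and 21.6, 19.4 and 20.1 CPM in regrown cells. S100A9 was higher in every regrown library, by 3.76 ± 0.23 on the log2 scale, and the groups of 51% of all genes did not overlap there. For S100A9 this is again a description, because the same cells led to the choice of the gene. Besides S100A9 the fit held S100A6, S100A10 and S100A11, of which only S100A10 was called, as lower. Of all genes 38.4% were called (18.6% higher and 19.8% lower). The fit also called S100A9 higher, which follows from the choice and is not set against that share.

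DGE was too shallow for the filter to keep S100A9 when regrown was set against parental cells. Under DMSO the parental libraries held 2, 1 and 0 counts and the regrown ones 17, 33 and 7, which is 25.1 to 87.7 CPM. The ratio of pooled levels was 19.4 (95% interval 6.31 to 96.9, counting error only). Under lenalidomide the counts were 0, 4 and 0 in parental and 9, 16 and 9 in regrown cells, a ratio of pooled levels of 10.6 (3.77 to 41.0). The groups overlapped in neither condition, and 22.9% of the genes tested under DMSO and 19.8% under lenalidomide showed no overlap. With no filter edgeR called S100A9 higher under DMSO and under lenalidomide. That is no independent test, because the same cells led to the choice of the gene and the parental counts lie near 0.

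In the main fits S100A9 was not called with any treatment tested in SU-DHL-1, and several of the estimates had wide errors. Lenalidomide in parental cells, with 3 counts under DMSO and 4 under drug, could not be tested. Lenalidomide in regrown cells gave a log2 change of 0.25 ± 0.51, with 25.1 to 87.7 CPM under DMSO and 25.7 to 122.6 CPM under drug, which was not called. The ZFP91 knockout gave 0.23 ± 0.39 in parental cells and 0.33 ± 0.12 in regrown cells (adjusted p = 0.0619). All 3 regrown knockout libraries lay above the 3 without doxycycline, where the groups of 47.3% of all genes did not overlap. The regrown value was called with scaling by library size alone (adjusted p = 0.0398) and without regrown replicate 2 of the cells without doxycycline (0.0246). The CSNK2B vector in SU-DHL-1 gave 16, 13 and 16 counts (0.665 to 0.835 CPM) against 9, 8 and 10 (0.376 to 0.594 CPM) with the empty vector, a log2 change of 0.65 ± 0.38 (adjusted p = 0.396).

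KI-JK had by far the most S100A9 RNA, with levels set across tables that were scaled separately and therefore not tested. The empty vector libraries gave 366, 348 and 339 CPM and the CSNK2B libraries 441, 394 and 364 CPM. The second group overlapped the first by 1 library, and the log2 change of 0.19 ± 0.05 was called (edgeR adjusted p = 0.00512). DESeq2 on the same counts did not call it (adjusted p = 0.0711).

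S100A8, the other subunit of calprotectin, was not read with S100A9 in SU-DHL-1. PRO-seq held 0 counts in all 3 parental libraries and 21, 0 and 0 in the regrown pools, so all 21 counts (0.633 CPM) came from pool 1, the pool with the most S100A9. Against the floor of 3 counts over the group, the regrown group was at least 6.37-fold higher. RNA-seq of the parental and regrown cells held 0 to 2 counts per library, and parental and regrown cells without doxycycline had 0 counts in all 3 libraries each, which allows up to 0.0528 and 0.0551 CPM. DGE held a single S100A8 count, in a regrown library under DMSO.

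In KI-JK both partners were read. S100A8 stood at 31.1, 30.7 and 29.8 CPM with the empty vector and at 36.0, 33.2 and 31.2 CPM with CSNK2B. All 3 CSNK2B libraries were the higher ones, where the groups of 45.6% of all genes did not overlap. The log2 change of 0.13 ± 0.06 was not called (adjusted p = 0.124). S100A12, a further calgranulin of granulocytes, was also read in KI-JK, at 6.02 ± 0.785 CPM with the empty vector, and had 0 counts in all 18 RNA-seq libraries of SU-DHL-1.

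Calprotectin is a product of myeloid cells, so a list of 16 myeloid and neutrophil markers was read beside it. The summed CPM of the list ran from 946 to 1061 in parental and from 300.3 to 336.7 in regrown RNA-seq libraries without doxycycline, and from 1001 to 1274 and from 271.0 to 294.8 with the knockout. In the comparison of knockout cells, 5 of 5 tested markers were lower in regrown cells, where 19.8% of all genes were, led by CD163 (−5.77 ± 0.13, adjusted p = 5.88e-08), a scavenger receptor of macrophages, and VCAN (−1.51 ± 0.13, adjusted p = 3.85e-05), a matrix proteoglycan; the list's median log2 change was −1.51 against a median near 0 for all genes. CYBB, ELANE, FCGR3B, FCN1, LYZ, MNDA, MPO and PRTN3 had 0 counts in all 12 libraries of that table. Under DMSO in DGE, 3 of 3 tested markers were lower (of all genes 6.21% were called there), CD163 (−3.88 ± 0.41), VCAN (−1.22 ± 0.21) and CSF3R (−1.18 ± 0.34). In KI-JK, AZU1, ELANE, FCGR3B, MNDA, MPO and PRTN3 had 0 counts in all 6 libraries, while CSF1R, the receptor for macrophage colony-stimulating factor, was at 132.8 CPM with the empty vector. In bulk samples, fewer cells of a type and less RNA per cell cannot be told apart.

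A list of 21 transcription regulators, among them factors known to act on the calprotectin genes, held calls in both directions. In the knockout comparison of regrown with parental cells, 3 were called higher and 4 lower of 19 tested, where 38.4% of all genes were called; their median log2 change was 0.10 against a median near 0 for all genes. BATF, a leucine-zipper factor, rose by 1.28 ± 0.16 (adjusted p = 0.000281), and HIF1A, the hypoxia factor, fell by 0.84 ± 0.08 (adjusted p = 7.21e-05). In regrown cells the knockout raised 6 of 19 and lowered 3, where 16.3% of all genes were called higher and 15.7% lower, among them CEBPB (0.56 ± 0.09, adjusted p = 0.000808) and CEBPD (0.69 ± 0.14, adjusted p = 0.0033), myeloid factors of the C/EBP family, and IKZF1, which lenalidomide marks for degradation (−0.50 ± 0.08, adjusted p = 0.000689). A list of 14 genes for receptors of S100 proteins also held PLAU, which codes for urokinase and not for a receptor. Of the 14, 7 could be tested in the knockout comparison of regrown with parental cells, and 2 were higher and 5 lower. Their median log2 change was −0.39 against a median near 0 for all genes, 38.4% of which were called. PLAUR, a receptor of the list, fell by 0.92 ± 0.17 (adjusted p = 0.00216) and SCARB1, a receptor for lipoproteins, fell by 0.43 ± 0.07 (adjusted p = 0.00164). AGER was at 4.02 CPM in parental and 11.2 CPM in regrown knockout cells, a log2 change of 1.44 ± 0.28 (adjusted p = 0.00353). TLR4 stayed at or under 0.06 CPM in every RNA-seq group.

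**Figure D2:**
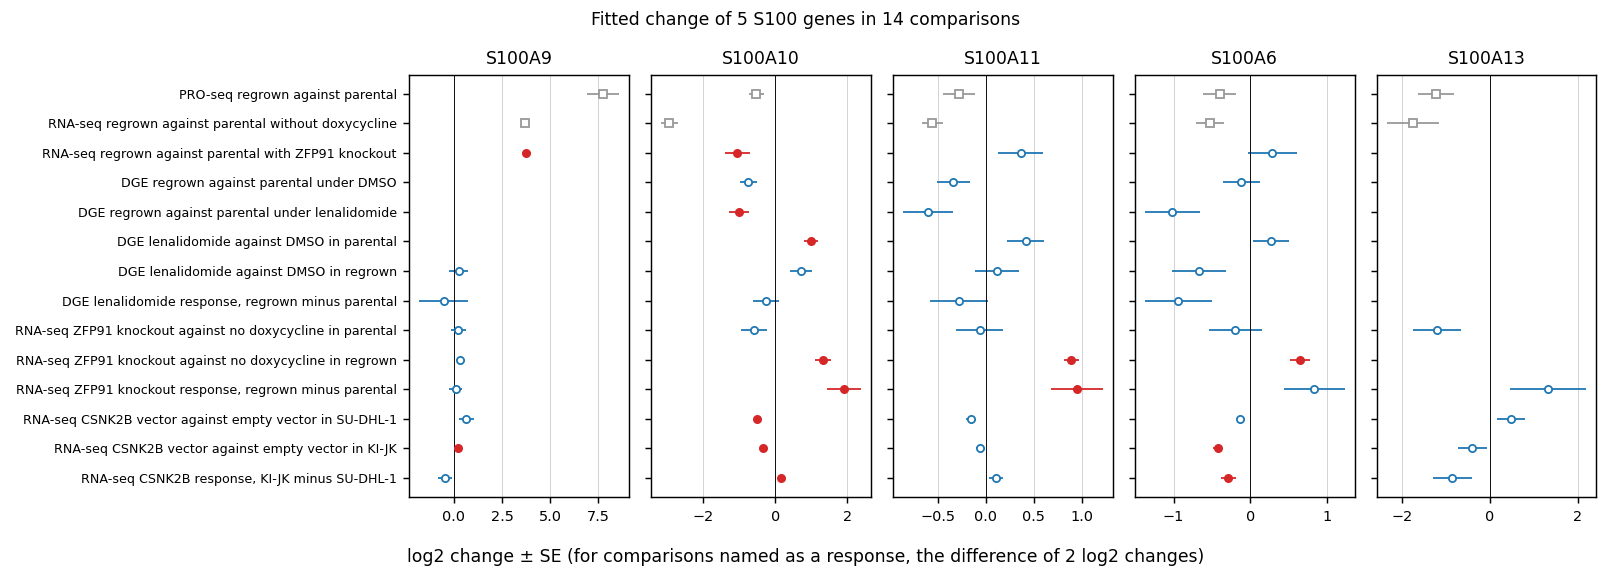
Log2 change ± SE of 5 S100 genes (panels) in each comparison they could be tested in, with 3 libraries a group. Grey squares are the 2 comparisons given as description for all genes, filled red circles are called and open blue circles are not. Earlier results from the knockout libraries were also known, so the red circle of S100A9 in regrown against parental knockout cells is a description too. S100A9 stands far to the right only where regrown is set against parental cells, and S100A10 is left of 0 in regrown cells and with CSNK2B and right of 0 with lenalidomide.

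S100A10, the annexin A2 partner, was the member called in most comparisons. It was lower in regrown than in parental cells, higher after lenalidomide in parental cells, higher after the ZFP91 knockout in regrown cells, and lower with CSNK2B in both lines. It was called in 8 of the 12 comparisons other than the 2 given as description, over which from 0% to 38.4% of all genes were called. S100A6 and S100A11, tested in the same 12, were called in 3 and 2, and the other members could be tested in fewer. The 12 comparisons share libraries, the 8 calls include differences of responses, and several calls ended under alternatives given below.

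Polymerase signal over S100A10 was 27.2, 35.6 and 33.1 CPM in parental and 18.3, 17.7 and 30.4 CPM in regrown cells, with a log2 change of −0.53 ± 0.21. Regrown pool 3 lay inside the parental range, and without it the change was −0.83. Steady-state RNA without doxycycline differed by more, with 48.1, 56.1 and 79.2 CPM in parental and 5.07, 10.2 and 8.78 CPM in regrown cells (log2 change −2.94 ± 0.23). The groups did not overlap, which 53.7% of all genes showed. These are again descriptions.

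With the knockout, parental libraries read S100A10 at 18.7, 59.6 and 44.1 CPM and regrown ones 25.1, 16.9 and 18.5 CPM, so parental replicate 1 lay inside the regrown range. The log2 change of −1.05 ± 0.35 was called (edgeR adjusted p = 0.0394), but DESeq2 gave 0.0799. Adjusted p was 0.0631 without regrown knockout replicate 1, 0.141 without replicate 2 and 0.121 without replicate 3, and 0.0687 and 0.120 without parental knockout replicates 2 and 3.

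In DGE under DMSO, S100A10 read 544, 465 and 433 CPM in parental and 430, 157 and 276 CPM in regrown cells. These were 3 lower values, without overlap, which 22.9% of all genes showed. The change of −0.76 ± 0.24 was not called (adjusted p = 0.0533), and of the 3 members tested none was in edgeR, against 6.21% of all genes; 1 had an unadjusted p under 0.05, and DESeq2 called none. Leaving out regrown replicate 1 or 3 brought adjusted p to 0.000389 or 0.041, and fitting with no filter to 0.00821. Under lenalidomide the libraries read 898, 1140 and 671 CPM in parental and 629, 276 and 503 CPM in regrown cells. Again there was no overlap, which 19.8% of all genes showed. S100A10 was the 1 member of 3 tested that was called (log2 change −1.003 ± 0.27, adjusted p = 0.0394), where 2.78% of all genes were called and 1.57% were lower. The call ended on leaving out regrown replicate 2 or 3 (adjusted p = 0.200 and 0.158) or parental replicate 1 or 2 (0.229 and 0.146).

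Lenalidomide raised S100A10 in parental cells from 544, 465 and 433 to 898, 1140 and 671 CPM. The log2 change was 0.99 ± 0.18 (edgeR adjusted p = 0.0015), S100A10 was the 1 call among 3 members tested, and 0.845% of all genes were called, with 0.673% higher. Without parental DMSO replicate 2 the change was 0.94 with adjusted p = 0.0912, and the fit over all 4 DGE groups gave 0.0824. In regrown cells the values went from 430, 157 and 276 to 629, 276 and 503 CPM, higher within each of the 3 pools, with a log2 change of 0.71 ± 0.30 that was not called (adjusted p = 0.908). There 0.23% of all genes and none of the 4 members tested were called by edgeR; 1 member had an unadjusted p under 0.05, and DESeq2 called none. The 2 responses differed by −0.26 ± 0.37. In that test of the difference edgeR and DESeq2 called 0 of 6838 genes (0%), with 285 genes and 1 of the 4 members tested at an unadjusted p under 0.05.

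The binding partner of S100A11 and a receptor of the list rose in the same libraries. Among S100 binding partners, 1 of 8 tested rose with lenalidomide in parental cells, where 0.673% of all genes rose, and 1 of 8 in regrown cells, where 0.23% were called, in both cases ANXA1, by 0.97 ± 0.15 (adjusted p = 9.84e-05) and 1.06 ± 0.21 (adjusted p = 0.0112). PLAUR, the cell-surface receptor of urokinase, which activates plasminogen, rose by 1.66 ± 0.19 and 2.73 ± 0.35. ANXA2 itself stood at 308.9 and 285.8 CPM in parental cells under DMSO and lenalidomide.

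The response of S100A10 to the ZFP91 knockout, which includes any response to doxycycline itself, differed between parental and regrown cells. In regrown cells S100A10 went from 5.07, 10.2 and 8.78 CPM to 25.1, 16.9 and 18.5 CPM, by 1.33 ± 0.23 on the log2 scale (edgeR adjusted p = 0.00122). The groups did not overlap, which 47.3% of all genes showed. In parental cells it went from 48.1, 56.1 and 79.2 to 18.7, 59.6 and 44.1 CPM, with overlap, by −0.59 ± 0.35 (adjusted p = 0.721, or 0.000202 with no filter on low counts). The difference of the responses was 1.92 ± 0.47 (adjusted p = 0.0291). In regrown cells 3 of 4 members tested rose, against 31.9% of all genes called and 16.3% called higher, none of 5 was called in parental cells by edgeR or DESeq2 or had an unadjusted p under 0.05, against 0.427% of genes called, and 2 of 5 differed between the responses, against 9.81%. Even after the knockout, the S100A10 level of regrown cells remained under that of parental cells without doxycycline.

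S100A11, which binds annexin A1, and S100A6, the calcyclin gene, moved with S100A10 in the knockout. S100A11 read 91.5, 102 and 100.0 CPM in regrown cells without doxycycline and 186, 182 and 179 CPM with it; every pool was higher with it (log2 change 0.89 ± 0.08, adjusted p = 6.93e-05). In parental cells it read 126, 138 and 169 against 84.0, 187 and 147 CPM (−0.06 ± 0.25), and the difference of responses was 0.95 ± 0.27 (adjusted p = 0.0432). S100A6 read 12.5, 14.3 and 12.6 CPM in regrown cells and 23.3, 20.4 and 18.3 CPM with the knockout (0.65 ± 0.13, adjusted p = 0.00335); with all 4 groups in 1 fit the adjusted p was 0.0961. In parental cells S100A6 went from 13.7, 19.6 and 23.1 to 7.72, 24.3 and 17.4 CPM, and the difference of responses, 0.84 ± 0.40, was not called (adjusted p = 0.171); with the replicate number as a block within parental and regrown cells the adjusted p was 0.0224, with no filter 0.00158 and without parental knockout replicate 2 0.0174.

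The 3 calls in regrown cells held on leaving out any 1 of the 6 libraries. The 2 differences of responses did not. For S100A10, adjusted p was between 0.0612 and 0.0956 on leaving out regrown knockout replicate 1 or 2, regrown replicate 1 or 3 without doxycycline, parental knockout replicate 3, or parental replicate 2 or 3 without doxycycline. For S100A11 it was between 0.0683 and 0.116 on leaving out any of those or regrown knockout replicate 3 (0.0683). Leaving out any 1 of the 7 libraries named for S100A10 left edgeR with 0 genes called in the whole table.

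One library moved with these genes in parental cells. Parental knockout replicate 1 had the lowest S100A10, S100A11 and S100A6 of the 3 knockout libraries, and it also stood apart on the first component of the spread within groups, which took 25.3% of that spread and rose with gene length (Spearman's rho 0.398 across 12335 genes). Its score was 29.9, against −21.7 and −7.43 for the other parental knockout libraries, and regrown replicate 3 without doxycycline scored 60.9. S100A6, S100A10 and S100A11 lay at the 6.4, 8.6 and 13.9 percentiles of all genes' loadings on this component. Regrown replicate 3 without doxycycline, with the highest score, was not the lowest of its group for any of these genes. It read S100A10 at 8.78 CPM (the others 5.07 and 10.2), S100A11 at 100.0 (91.5 and 102) and S100A6 at 12.57 (12.54 and 14.28). With the score in the fit, the S100A10 and S100A11 differences were 1.43 ± 0.41 (adjusted p = 0.0648) and 0.67 ± 0.24 (adjusted p = 0.126). The S100A10 change in parental cells was then −0.48 ± 0.07 (edgeR adjusted p = 6.66e-05), against −0.59 ± 0.35 without the score. The score was built from the spread of these same libraries and takes up that spread by construction, so that p is no independent test. Its weights came from the spread within groups, but its values were centred over all libraries of the experiment. The score therefore also holds differences between groups, and a fit with it can take up part of a group difference. Genes called in parental cells went from 57 to 899 with it.

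**Figure D3:**
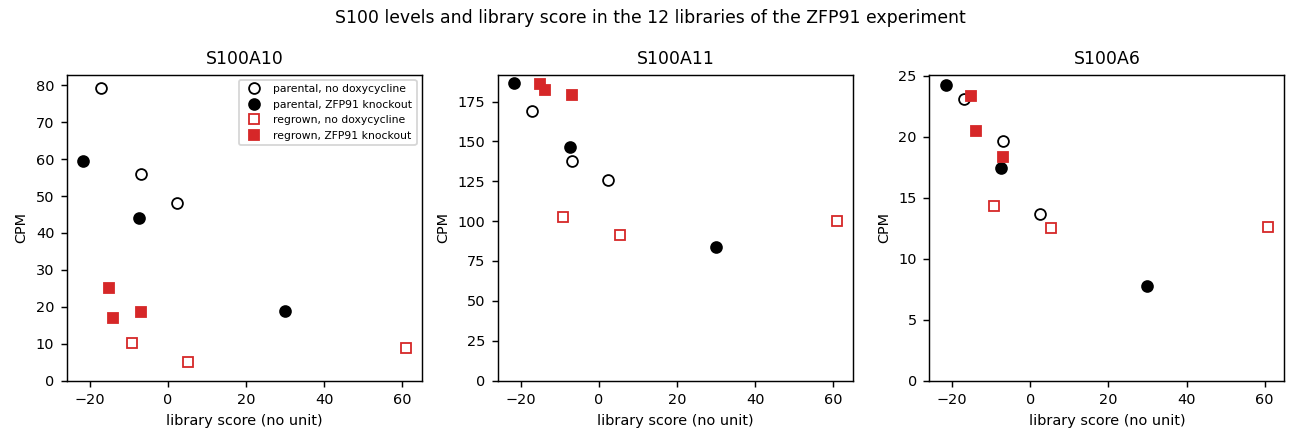
CPM of S100A10, S100A11 and S100A6 against the library score of the ZFP91 experiment in its 12 libraries, black circles for parental and red squares for regrown, filled with the knockout. The regrown knockout libraries lie above the regrown ones without doxycycline in all 3 panels, and parental knockout replicate 1, at a score of 29.9, is the lowest of its group.

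Binding partners of the S100 proteins were called in both directions in the regrown knockout, 4 of 12 higher and 3 lower, where 31.9% of all genes were called. ANXA2 rose by 0.56 ± 0.09 (adjusted p = 0.000743), as did its partner S100A10. MYH9, the myosin bound by S100A4, fell by 0.72 ± 0.11, and MDM2, the ubiquitin ligase of p53, fell by 0.82 ± 0.12. The responses of ANXA1 (0.81 ± 0.16), ANXA2 (0.79 ± 0.19) and CACYBP (0.54 ± 0.15) were more positive in regrown than in parental cells, and that of MYH9 was more negative (−0.90 ± 0.21). The list's median difference was −0.19, against a median near 0 for all genes.

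S100A11 and S100A6 were also set side by side in regrown and parental cells, as a description in PRO-seq and in RNA-seq without doxycycline. PRO-seq gave S100A11 at 78.3, 101 and 89.5 CPM in parental and 54.0, 81.0 and 86.0 CPM in regrown cells, overlapping (−0.28 ± 0.16), and S100A6 at 12.2, 10.3 and 11.6 against 6.24, 8.12 and 11.4 CPM, overlapping (−0.40 ± 0.22). In RNA-seq without doxycycline the values given above for S100A11 did not overlap between parental and regrown cells (−0.56 ± 0.11), and those for S100A6 did (−0.52 ± 0.18). Of all genes there, 53.7% showed no overlap. With the knockout both were above 0, at 0.36 ± 0.23 and 0.29 ± 0.32, and neither was called (adjusted p = 0.252 and 0.515). S100A11 was called with no filter (0.00164), with the library score (0.0168) and without parental knockout replicate 2 (0.63, adjusted p = 0.0119).

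In DGE neither gene was called. S100A11 read 546, 570 and 568 CPM in parental and 483, 415 and 444 CPM in regrown cells under DMSO, without overlap, which 22.9% of all genes showed, and with adjusted p = 0.292. S100A6 read 189, 198 and 165 against 249, 114 and 151 CPM. Under lenalidomide S100A11 differed by −0.60 ± 0.26 (adjusted p = 0.27). S100A6, with only 5 counts in parental replicate 3 under the drug, differed by −1.02 ± 0.36 (adjusted p = 0.148) and was called only without regrown replicate 1 (−1.37, adjusted p = 0.0423). S100A10 and S100A11 were the 2 highest members in this assay, and their regrown DMSO values overlapped.

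The CSNK2B vector lowered S100A10 in both lines. SU-DHL-1 went from 132.8, 133.3 and 132.6 to 95.2, 92.3 and 95.3 CPM, very tight in both groups, by −0.50 ± 0.04 (edgeR adjusted p = 3.39e-09). KI-JK went from 505, 504 and 480 to 412, 388 and 382 CPM, by −0.33 ± 0.04 (adjusted p = 3.5e-07). In SU-DHL-1 S100A10 was the 1 call among 5 members tested, where 6.74% of all genes were called and 3.34% were lower. In KI-JK 2 of 6 members fell and 1 rose, where 35.7% were called, 18.4% higher and 17.3% lower.

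S100A6 fell in KI-JK, from 210, 216 and 204 to 177, 156 and 137 CPM (−0.43 ± 0.06, adjusted p = 6.8e-06), while in SU-DHL-1 it went from 31.5, 32.5 and 30.7 to 29.3, 28.0 and 29.0 CPM (−0.13 ± 0.06, adjusted p = 0.23). S100A11 went from 243, 237 and 219 to 220, 217 and 191 CPM in SU-DHL-1 (−0.16 ± 0.05, adjusted p = 0.0501) and from 490, 510 and 455 to 482, 462 and 452 CPM in KI-JK (−0.06 ± 0.04, not called). The S100A11 value in SU-DHL-1 lies at the threshold, and it passed under several settings, with adjusted p = 0.0332 without CSNK2B replicate 1 and 0.0168 without empty vector replicate 3.

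The difference of the 2 lines' responses was −0.28 ± 0.10 for S100A6 (adjusted p = 0.0348) and 0.17 ± 0.06 for S100A10 (adjusted p = 0.0267), 2 of 6 members, where 19.2% of all genes were called. Each line came in its own table, so line and table cannot be told apart. The S100A6 call ended on leaving out KI-JK CSNK2B replicate 3 (adjusted p = 0.0546), any of the 3 SU-DHL-1 CSNK2B replicates (0.0529 to 0.0860) or SU-DHL-1 empty vector replicate 1 or 3 (0.0755 and 0.0563). The S100A10 call ended on leaving out KI-JK CSNK2B replicate 1 (0.0755), KI-JK empty vector replicate 3 (0.0892), SU-DHL-1 CSNK2B replicate 2 or 3 (0.0585 and 0.0509) or SU-DHL-1 empty vector replicate 1 or 3 (0.0571 and 0.0563), and with library size scaling (0.0646) or no filter (0.311).

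ANXA1, the partner of S100A11, fell with CSNK2B in both lines as well. Among S100 binding partners, 2 of 12 tested fell in SU-DHL-1 and none rose, where 3.34% of all genes fell, and 6 of 13 fell and 2 rose in KI-JK, where 17.3% fell and 18.4% rose. ANXA1 fell by 0.54 ± 0.04 in SU-DHL-1 (adjusted p = 6.29e-11) and by 0.53 ± 0.04 in KI-JK (adjusted p = 1.37e-09). AHNAK, a giant scaffold that binds the S100A10 and annexin A2 complex, fell by 0.38 ± 0.09 and 0.95 ± 0.05. PLAUR went in opposite directions, −0.51 ± 0.04 in SU-DHL-1 and 0.31 ± 0.04 in KI-JK, and the test of that difference gave 0.83 ± 0.05 (adjusted p = 2.03e-12). Of 21 calcium sensors outside the S100 family, 7 of 20 tested fell and none rose in SU-DHL-1 (3.34% of all genes fell), with a median of −0.04 against a median near 0 for all genes, and 6 of 20 fell and 2 rose in KI-JK (35.7% of all genes called).

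S100A13, which takes part in the release of fibroblast growth factor 1, had few counts outside PRO-seq. PRO-seq read 4.15, 2.89 and 2.63 CPM in parental and 2.47, 0.777 and 0.942 CPM in regrown cells. The groups did not overlap, which 45% of all genes showed. The log2 change was −1.23 ± 0.41, and −1.91 without regrown pool 1. RNA-seq without doxycycline held 17, 17 and 16 counts in parental and 4, 5 and 5 in regrown cells. The ratio of pooled parental to pooled regrown level was 3.42 (95% interval 1.86 to 6.71, counting error only). The knockout in parental cells left 3, 14 and 5 counts, a log2 change of −1.21 ± 0.55 that was not called (adjusted p = 0.606). The CSNK2B libraries held 19 to 36 counts in SU-DHL-1 and 18 to 42 in KI-JK, with overlap in both lines and no call in either. DGE held at most 1 count per library.

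S100A4, a gene long studied for its part in cell movement, was a low-count gene everywhere except PRO-seq. Polymerase signal was similar in both states, with 53, 70 and 88 counts in parental and 40, 91 and 71 in regrown cells (−0.21 ± 0.31). RNA-seq held 8, 2 and 4 counts in parental and 0, 0 and 0 in regrown cells without doxycycline, at least 4.47-fold lower against the floor of 3 counts over the group, and 10, 4 and 0 against 1, 0 and 6 with the knockout. In KI-JK the CSNK2B libraries held 5, 0 and 2 counts and the empty vector ones 11, 4 and 9. The ratio of pooled empty vector to pooled CSNK2B level was 3.50 (1.46 to 9.61, counting error only). It was tested only in PRO-seq.

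The 14 other S100 genes of the family list were mostly unread. In the ZFP91 experiment S100A12, S100A14, S100A7, S100A7A, S100A7L2 and S100Z had 0 counts in all 12 libraries, and the 14 genes summed to 1.61 CPM in parental and 1.199 CPM in regrown cells without doxycycline. S100A2 was the most abundant of them in KI-JK, at 6.19 ± 0.331 CPM with the empty vector, and none of the 14 was called in any RNA-seq or DGE comparison. At most 4 of the 14 could be tested. PRO-seq listed 2 of them, and S100A5 read 2.36 ± 0.293 CPM in parental and 1.04 ± 0.0413 CPM in regrown cells.

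The genes around the cluster had smaller changes than S100A9 where regrown was set against parental cells. S100A9 was chosen with its change in PRO-seq and in RNA-seq without doxycycline known, so its place above the neighbours there is a description. That contrast follows from the choice of the gene. Of the 21 nearest tested neighbours in PRO-seq, 2 were called higher and 2 lower, where 30.2% of all genes were called (14% higher and 16.2% lower), and their changes ran from −0.57 to 0.35 with a median of −0.04, against 0.02 for all genes. In RNA-seq without doxycycline the 23 neighbours ran from −2.05 to 0.83, with 5 higher and 9 lower, where 43.7% of all genes were called (22.6% higher and 21.1% lower). In the regrown knockout 7 of 23 rose and 2 fell, where 31.9% of all genes were called, with a median of 0.09 against a median near 0 for all genes. With CSNK2B edgeR called none of 24 in SU-DHL-1, where S100A10 fell and 6.74% of all genes were called, and 6 of 23 rose and 5 fell in KI-JK, where 35.7% were called.

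**Figure D4:**
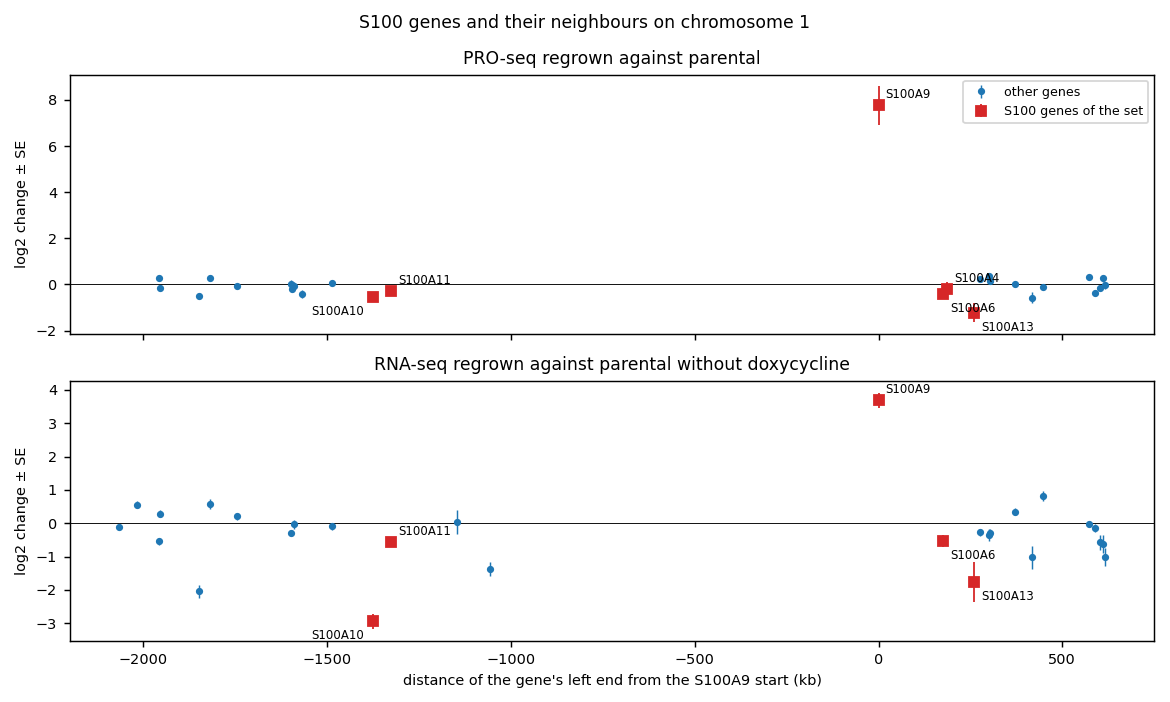
Log2 change ± SE of regrown over parental cells for tested S100 genes of the set (red squares, named) and their tested neighbours (blue circles) by distance of the gene's left end from the S100A9 start in kb, for PRO-seq (top) and RNA-seq without doxycycline (bottom). S100A9, at 7.76 and 3.69, stands above all neighbours shown, which run from −0.57 to 0.35 and from −2.05 to 0.83. The gene was chosen with these changes known, so its height is a description.

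Across the 24 RNA-seq libraries, which share their line and table within each experiment, S100A6 and S100A11 varied most closely among the members (Pearson's r 0.969), followed by S100A10 with S100A11 (0.922) and S100A6 with S100A10 (0.893). S100A9 followed S100A10 far less (0.398). The genes whose log2 level was most like S100A9, among 12390 compared, were PDE4B (0.995), RAP2A (0.990) and MB21D2 (0.989). For S100A10 they were TANK (0.979), CDKN3 (0.977) and DAD1 (0.976), for S100A11 VPS72 (0.978), FXYD5 (0.976) and SUMO3 (0.973), and for S100A6 SNX3 (0.987), KIF20A (0.986) and CHMP2A (0.983). The level of KI-JK against SU-DHL-1 weighs heavily in these values.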

How the data were processed

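The deposited tables hold counts per gene, whole numbers whose totals differ between libraries, and the authors had left them without normalization. The submitters' processing notes name, for PRO-seq, cutadapt 1.14, Bowtie 1.2.2 and featureCounts 1.6.2 on hg38, for DGE Bowtie2 2.2.3 and DESeq2 on hg19, and for RNA-seq STAR 2.6.1d, DESeq2 1.20.0 and edgeR 3.24.3 on hg38. The RNA-seq counter, its use of strand and the treatment of molecular identifiers in DGE are not given in the sources used here. Reads shared by overlapping or antisense genes therefore cannot be told apart.

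Groups came from the labels. Each of 14 comparisons (11 of 2 groups, 3 differences of responses) was fitted in R 4.3.3 with edgeR 4.0.16 (filterByExpr, TMM, quasi-likelihood F-test, two-sided) on only the groups compared, and adjusted by Benjamini-Hochberg over all genes tested. The SE was derived from the test's F value, as the log2 change over its square root. Alternatives were scaling, filters, DESeq2 1.42.0, all groups in 1 fit, a replicate block, a library score and leaving out each library. The members, the gene lists and the naming rule were chosen with earlier results of these data known. Named genes are the 7 members, and from each list up to 4 called genes of smallest p. For genes with several RefSeq starts, the start nearest the counted interval was used. Epithelial and stromal markers were also read, and their summed level stayed at or under 32.4 CPM in every RNA-seq library. FLG and HRNR, of the fused-type S100 genes, were lower in regrown knockout cells (−2.05 ± 0.13 and −0.94 ± 0.28).

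Same-numbered regrown libraries come from the same pool, per the labels, so the numbers pair samples within the regrown comparisons of drug with DMSO and of knockout with no doxycycline. Elsewhere a number only names a sample. Replicates were not duplicates (smallest chi-square per degree of freedom 1.34). In RNA-seq 27 gene names turned into dates were restored from their identifiers.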

Additional observations from a re-analysis of the deposited data

Results flagged for a closer look

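The 4 results below were picked out because a test of the difference between a pair of responses passed. The S100A10 response to the ZFP91 knockout was more positive in regrown than in parental cells by 1.92 on the log2 scale, and that of S100A11 by 0.95. The S100A6 response to the CSNK2B vector was more negative in KI-JK than in SU-DHL-1 (−0.28), and that of S100A10 was less negative (0.17). Each of the 4 calls ended on leaving out single libraries, as given with the values above.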

How the results depend on the processing

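Of 896 values of single members under alternatives, 827 were counted as unchanged, 46 fell short of the threshold, 21 newly passed it and 2 moved by more than their error. Unchanged means a shift within the error in the 2 descriptive comparisons and the same side of the threshold elsewhere. No value called in the main fit reversed its direction. For values not called, a change of direction was not counted.

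Counts of members called moved as follows; the causes were not tested. In regrown against parental knockout cells the 2 calls became 1 with DESeq2, 3 with no filter and 3 with the library score. The 2 calls include that of S100A9, which is a description there. In DGE under DMSO the 0 calls became 2 with no filter, 1 with a filter at 1 CPM and 1 with all groups in 1 fit, and under lenalidomide the 1 call became 2 with no filter, 2 with the 1 CPM filter and 2 with all groups. Lenalidomide in parental cells went from 1 call to 0 with all groups. The knockout in parental cells went from 0 calls to 1 with no filter and 1 with the library score, and the difference of knockout responses from 2 to 0 with the score. In regrown cells the 3 calls of the knockout became 2 with all groups in 1 fit and 4 with library size alone, and CSNK2B in KI-JK went from 3 to 2 with DESeq2. CSNK2B in SU-DHL-1 went from 1 call to 2 with DESeq2 size factors, with no filter and with the 1 CPM filter, and the difference between the lines from 2 to 1 with library size alone and with no filter.

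Leaving out 1 library gave 1 to 3 calls in PRO-seq, 3 to 4 in RNA-seq of regrown against parental cells without doxycycline, 1 to 2 with the knockout, 0 to 2 in DGE under DMSO, 0 to 2 under lenalidomide, 0 to 1 for lenalidomide in parental cells, 0 to 3 for the difference of knockout responses, 1 to 2 for CSNK2B in SU-DHL-1 and 0 to 2 for the difference between the lines.

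With the replicate number as a block, 1 member was called in regrown against parental knockout cells, where S100A10 had adjusted p = 0.102, 1 in DGE under DMSO and 2 for CSNK2B in SU-DHL-1; in those comparisons the samples share only a number. In the regrown comparisons where the numbers pair the samples, the block changed no member's call.

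Counts over all genes moved by more than 1.5 times in these comparisons. The knockout in parental cells called 57 genes, 198 with DESeq2, 231 with no filter, 899 with the score and 0 to 110 without 1 library. In regrown cells it called 4186, 2456 with the score and from 2410 without 1 library. The difference of knockout responses called 1399, 2441 with DESeq2, 2333 with no filter, 2257 with the block, 370 with the score and 0 to 3355 without 1 library. DGE called 369 under DMSO (240 with DESeq2, 222 to 512 without 1 library), 129 under lenalidomide (82 with DESeq2, 244 with all groups, 23 to 149 without 1 library), 49 for lenalidomide in parental cells (30 with DESeq2, 28 with all groups, 31 at 1 CPM, 25 to 105 without 1 library) and 13 in regrown cells (20 with no filter, 7 to 13 without 1 library). PRO-seq called 4973, and 3245 without parental replicate 2, and CSNK2B in SU-DHL-1 called 925, and 582 without empty vector replicate 1. Scaling by library size alone moved the higher calls from 638 of 1399 to 977 of 1440 for the difference of knockout responses, from 3023 of 5850 to 2415 of 5961 for RNA-seq without doxycycline, and from 1671 of 2984 to 1287 of 2898 for the difference between the lines. DGE depth limits the low-count members.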
